A study of Mus musculus with 12 samples.

Results

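The suppressors of cytokine signalling are a family of 8 genes in the mouse, Socs1 to Socs7 and Cish, and all 8 were found by gene symbol among the 29486 genes of the deposited mRNAseq table. Total polyA mRNA abundance was measured in primary splenic B cells of C57BL/6Babr mice aged 8 to 12 weeks, isolated with a B cell isolation kit and cultured with bacterial lipopolysaccharide (LPS), which activates them. The 3 conditions, with 4 replicate libraries each, were LPS alone at 10 μg/ml (LPS), LPS for 48 h followed by 4 h with etoposide at 20 μM (LE), and LPS for 47 h, then the ATM kinase inhibitor KU55933 at 10 μM for 1 h and then the same etoposide exposure (LEKU). Etoposide poisons topoisomerase II and breaks DNA, and ATM is a kinase that signals such breaks. The study asked with these libraries how DNA damage changes the mRNA of activated B cells and what ATM contributes. Every cell received LPS, and no group received KU55933 without etoposide. The labels do not state whether the LPS libraries were harvested at 48 h or kept for the 4 h more that LE and LEKU spent in culture, so those hours and etoposide cannot be told apart. No Illumina index was used in more than 1 condition, so index and condition cannot be told apart either.

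Cytokines bind receptors whose JAK kinases phosphorylate STAT transcription factors, and STATs then switch on target genes, among them several SOCS genes. The SOCS proteins carry an SH2 domain, which binds phosphotyrosine, and a C-terminal SOCS box, which recruits elongins B and C and cullin 5 to a ubiquitin ligase. Cish (CIS), Socs1, Socs2 and Socs3 are the classical feedback members. Socs1 and Socs3 also block JAK kinases through a kinase inhibitory region, while CIS and Socs2 occupy receptor tyrosines. Socs4 and Socs5 are best known from growth factor receptor signalling, and Socs6 and Socs7 from signalling by receptor tyrosine kinases and insulin receptor substrates. In B cells, interleukin 4, interleukin 6, interleukin 21 and interferons signal through this pathway.

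The classical motif of STAT dimers is TTCNNNGAA, in which N is any base. It reads the same on both strands and was searched in RefSeq promoters of build GRCm38.p6, from 250 bases before to 50 bases after the RefSeq start site. The promoter table held 4 of the 8 members: Cish, Socs1, Socs3 and Socs4. The 2 members with the motif were Cish and Socs3, which were also the members that were at least 2-fold higher in LEKU than in LE, and their sites are shown for that reason. No match was found in these windows of Socs1 and Socs4. The motif was present in 2726 of all 32851 promoters (8.30%), and 150 promoters (0.457%) held 2 or more matches, as that of Cish did. The Cish matches lie from base 1 to 9 and from base 12 to 20, counted from 1 at the start site, and the Socs3 match lies from base −154 to base −146, before the start site. These are RefSeq start sites. The gene bounds given below come from another annotation, begin further upstream for both genes and hold both stretches. A match describes the letters only and was not tested for binding. The members without a promoter here were not searched, and whether the motif goes with the difference between LEKU and LE was not tested. The stretches below are on the strand of the gene, with TTCNNNGAA in capitals.
Cish, chr9:107296654-107296683, plus strand: cagttTTCCTGGAAagTTCTTGGAAatctg
Socs3, chr11:117969501-117969530, minus strand: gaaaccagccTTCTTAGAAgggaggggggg

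The deposited values allow levels to be compared, but not their spread between replicates. Within a condition the 4 columns were exact multiples of each other over the whole table (their log2 ratios varied by at most 1.42e-14 between genes), so each column is the mean fitted for the condition multiplied by a factor of the library. No test against replicate error was therefore possible on these values, no p-value was computed, and differences below are descriptions. Whether the deposited values of 2 conditions overlap follows from the fitted means and the library factors. Such statements below are no evidence from replicates. In units of 1000000, library totals lay between 20.4 and 30.6, and the recovered library factors between 0.805 and 1.33. A level is given as a normalized count, the deposited value divided by the factor. Its 95% interval covers counting error only and was taken from the sum of the 4 columns read as reads (exact Poisson for a level, exact conditional binomial for a ratio). Of the 29486 genes, 15581 passed a filter on low values, which asked for 10 or more normalized counts in 4 or more libraries, and all 8 members were among them. A gene counts as past 2-fold when its difference in log2(normalized count + 1) is at least 1 in size, while ratios are given without the added count.

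Analysis of the family showed higher mRNA abundance of some members after etoposide, and of 2 members with KU55933 added. In LE against LPS, 3 of 8 members (Cish, Socs1 and Socs5) were at least 2-fold higher, where 13.7% of all genes past the filter were. In LEKU against LE, 2 of 8 (Cish and Socs3) were at least 2-fold higher, where 1.80% of all genes were. In LEKU against LPS, 3 of 8 (Cish, Socs1 and Socs5) were at least 2-fold higher, where 10.5% of all genes were. At a threshold of 1.5-fold the numbers were 4, 2 and 6 of 8, against 21.0%, 7.36% and 19.5% of all genes. Of the 8 members, 0 were lower by 2-fold, where 6.61%, 4.51% and 6.41% of all genes were, and 0 were lower by 1.5-fold, where 17.9%, 11.4% and 16.9% were. With 8 members, a count of 0 is near these shares. The median log2 difference of the members was 0.57 in LE against LPS, 0.25 in LEKU against LE and 0.99 in LEKU against LPS, and that of all genes was −0.055, −0.031 and −0.0099. The number of members above 0 was 7, 7 and 8 of 8 in the same order, where 46.3%, 46.4% and 49.2% of all genes were above 0. Each pair of these comparisons shares the 4 libraries of a condition, so they are not independent of each other. In bulk RNA, fewer cells of a type and less RNA per cell cannot be told apart.

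**Figure D1:**
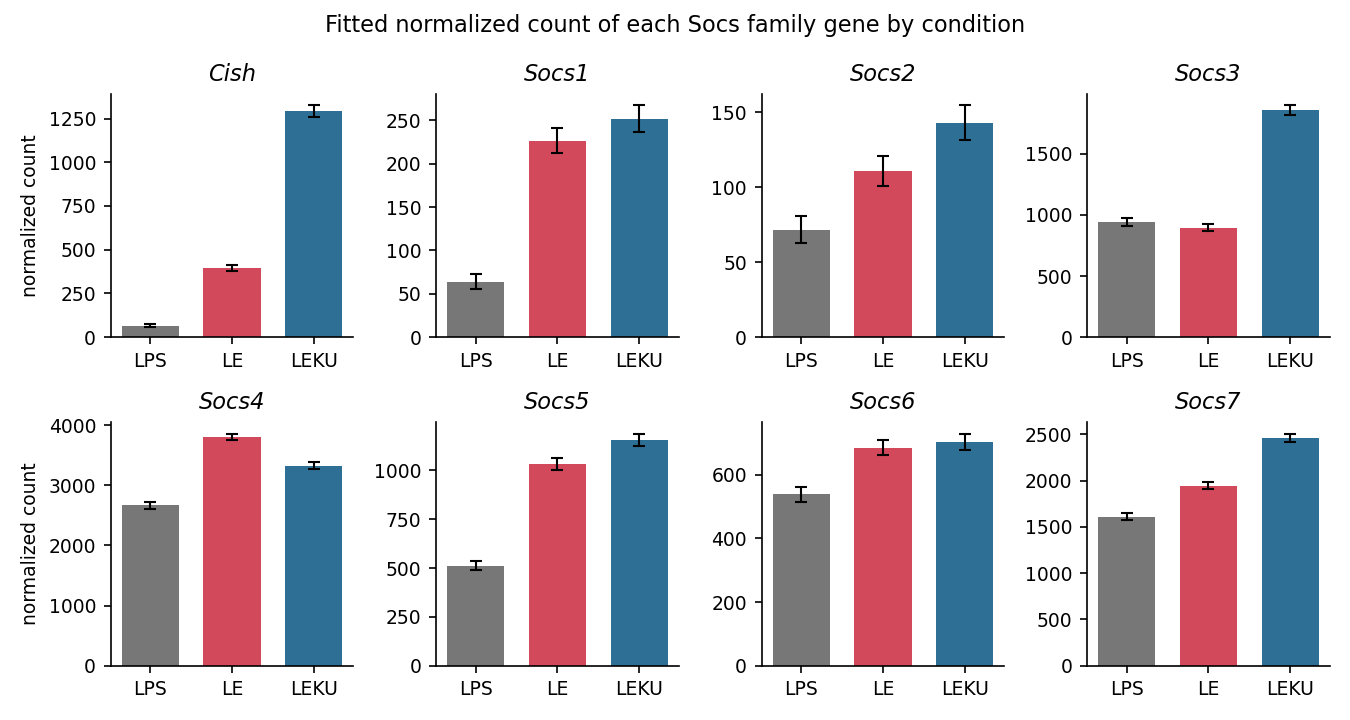
Normalized count of each Socs family gene (y axis, linear, from 0, own scale per panel) in LPS, LE and LEKU (x axis). Bars are the fitted condition means and error bars the 95% counting interval, which holds no spread between replicates. Cish went from 64.4 to 396 and 1292, while Socs3 was 940 in LPS, 894 in LE and 1857 in LEKU.

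Cish, which encodes CIS, an inhibitor known for limiting interleukin 2 receptor and STAT5 signalling, had the largest differences of the family in all 3 comparisons. The gene lies at chr9:107296026-107302784 on the plus strand of GRCm38 (ENSMUSG00000032578). Its deposited values in LPS replicates 1 to 4 were 51.8, 57.4, 59.8 and 53.8. In LE they were 388, 435, 527 and 422, and in LEKU 1177, 1328, 1422 and 1446. The 3 groups do not overlap, and within each group the values differ only by the library factor. The normalized count was 64.4 in LPS (95% counting interval 56.2 to 73.4), 396 in LE (378 to 415) and 1292 in LEKU (1257 to 1327). LE was thus 6.15 times LPS (5.35 to 7.10), a log2 difference of 2.60. LEKU was 3.26 times LE (3.09 to 3.44), a log2 difference of 1.70, and 20.1 times LPS (17.5 to 23.0), a log2 difference of 4.31. By size of difference, Cish ranked 479th of 15581 genes in LE against LPS, 47th in LEKU against LE and 17th in LEKU against LPS, counted from the highest. Cish was at least 2-fold higher at both steps, as 20 of 15581 genes were (0.128%).

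The annotation places antisense genes within Cish. Of its 6419 exonic bases, 479 are shared with Gm17041, which has no value here, and 261 with Gm17040, whose normalized count was 1.17 in LPS, 2.19 in LE and 3.96 in LEKU. The strand setting of the counting is not given in the sources used here, so reads of these stretches may belong to either strand. The genes whose 3 log2 levels moved most like those of Cish, by the Euclidean distance between their pairs of log2 differences from LPS (LE and LEKU, over 3 conditions), were Fosl2 (distance 0.23), Nr4a2 (0.61) and Klf4 (0.90), out of 10872 genes whose mean value was 100 or more. All 3 encode transcription factors known as early response genes. Fosl2, a member of the AP-1 family, had normalized counts of 82.5 in LPS, 590 in LE and 1560 in LEKU.

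**Figure D2:**
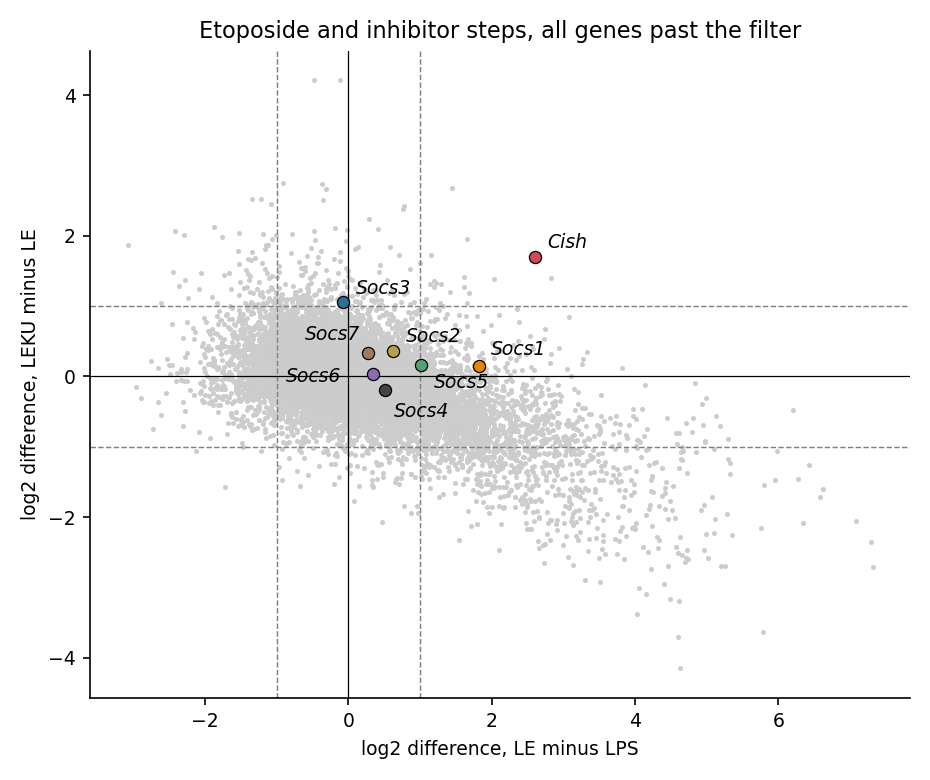
Log2 difference of LE minus LPS (x axis) against that of LEKU minus LE (y axis) for the 15581 genes past the filter in grey and the 8 Socs family genes in colour; dashed lines mark 2-fold. Both axes use the LE libraries with opposite sign, so the slope of the grey cloud is not a result. Cish stands at 2.60 and 1.70, past both lines, and Socs3 at −0.073 and 1.05.

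Socs1, a direct inhibitor of JAK kinases that restrains interferon signalling, was higher with etoposide and nearly level between LE and LEKU. The gene lies at chr16:10782240-10785536 on the minus strand (ENSMUSG00000038037). Its deposited values in LPS replicates 1 to 4 were 51.0, 56.6, 58.9 and 53.1. In LE they were 222, 249, 302 and 242, and in LEKU 230, 259, 277 and 282. Every LPS value is below every LE and LEKU value, and LE and LEKU overlap. The normalized count was 63.4 in LPS (55.4 to 72.5), 227 in LE (213 to 241) and 252 in LEKU (237 to 268). LE was 3.57 times LPS (3.08 to 4.15), a log2 difference of 1.82. LEKU was 1.11 times LE (1.02 to 1.21), a log2 difference of 0.15 that was not past 1.5-fold, and 3.97 times LPS (3.43 to 4.61).

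Socs3, the feedback inhibitor of interleukin 6 family receptors, differed between LEKU and LE and hardly between LE and LPS. The gene lies at chr11:117966079-117970047 on the minus strand (ENSMUSG00000053113). Its deposited values in LPS replicates 1 to 4 were 757, 839, 873 and 787. In LE they were 877, 983, 1190 and 953, and in LEKU 1693, 1909, 2045 and 2079. The LEKU values are all above those of the other conditions before the library factor is removed. Divided by it, the normalized count was 940 in LPS (908 to 973), 894 in LE (867 to 922) and 1857 in LEKU (1816 to 1899). LEKU was 2.08 times LE (1.999 to 2.16), a log2 difference of 1.05, and ranked 236th of 15581 genes. The lower end of this counting interval lies just below 2-fold. LE was 0.951 times LPS (0.908 to 0.996), and its log2 difference of −0.073 became 0.094 with library totals as the scaling and 0.021 with factors from genes of at least 10, so it has no stable direction. Against LPS, LEKU was 1.97 times as high (1.90 to 2.06), a log2 difference of 0.98 just short of the threshold, which it passed with library totals (1.18), quantile normalization (1.08) and factors from genes of at least 10 (1.06). Within 1.5-fold in LE against LPS and at least 2-fold higher in LEKU against LE were 113 of 15581 genes (0.725%), Socs3 among them. Socs3 was singled out after its values were seen, and the genes with the most similar pattern by the same distance were Zmym6 (0.080), Purg (0.088) and 2410006H16Rik (0.093).

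Socs2, known as the brake on growth hormone receptor signalling, had the lowest level per length in all 3 conditions. The gene lies at chr10:95385362-95417180 on the minus strand (ENSMUSG00000020027). Its deposited values ranged from 57.3 to 66.1 in LPS, from 109 to 147 in LE and from 130 to 160 in LEKU. Those of LE and LEKU overlap, and those of LPS lie below both. The normalized count was 71.2 in LPS (62.7 to 80.8), 111 in LE (101 to 121) and 143 in LEKU (132 to 155). LE was 1.55 times LPS (1.33 to 1.81), LEKU 1.29 times LE (1.14 to 1.46) and LEKU 2.01 times LPS (1.72 to 2.33). The last is a log2 difference of 0.99, just short of the threshold because of the added count, and it passed with upper quartile factors (1.00), library totals and factors from genes of at least 10 (1.07).

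**Figure D3:**
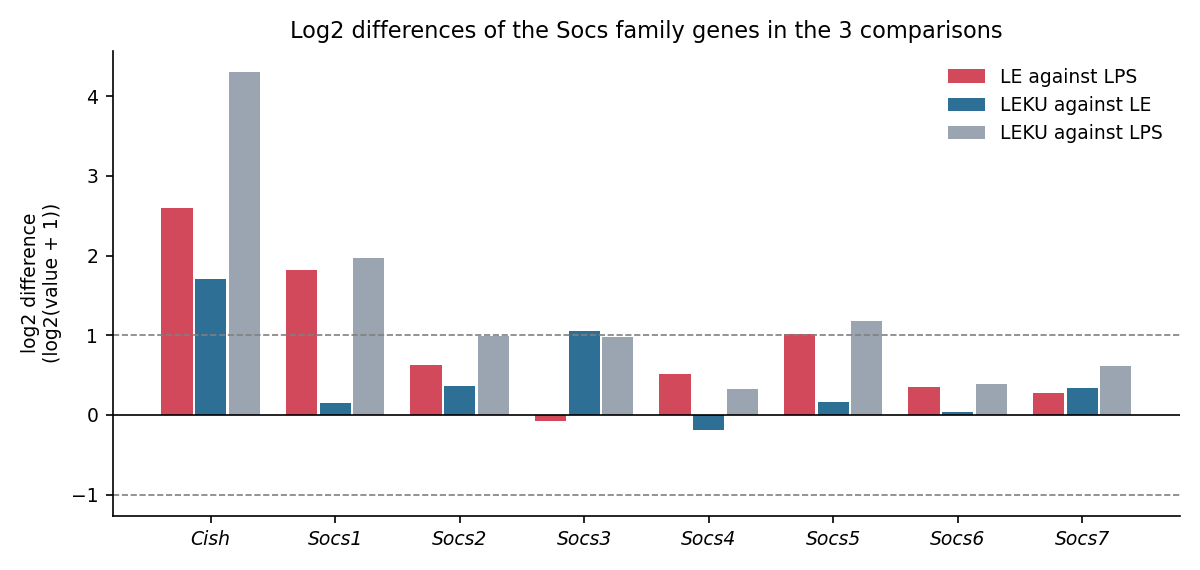
Log2 difference, in log2(normalized count + 1), of each Socs family gene in LE against LPS, LEKU against LE and LEKU against LPS (bars, from 0); dashed lines mark 2-fold. Cish has the tallest bar in each comparison. The bars of Socs5 in LE against LPS, of Socs3 in LEKU against LE and of Socs2 and Socs3 in LEKU against LPS end near the line. Below 0 are 2 bars, those of Socs3 in LE against LPS and of Socs4 in LEKU against LE.

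Socs5, which has been linked to interleukin 4 receptor and epidermal growth factor receptor signalling, was about 2-fold higher with etoposide, with or without KU55933. The gene lies at chr17:87107679-87137839 on the plus strand (ENSMUSG00000037104). Its deposited values ranged from 412 to 476 in LPS, from 1014 to 1377 in LE and from 1053 to 1294 in LEKU, with LE and LEKU overlapping. The normalized count was 512 in LPS (488 to 536), 1034 in LE (1005 to 1065) and 1156 in LEKU (1123 to 1189). LE was 2.02 times LPS (1.91 to 2.13), a log2 difference of 1.01 that went below the threshold with TMM factors (0.99) and with factors from all genes (0.96), which left 2 of 8 members past 2-fold. LEKU was 1.12 times LE (1.07 to 1.16) and 2.26 times LPS (2.14 to 2.38).

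Socs4, the closest relative of Socs5, was the most abundant member per length in LPS and LE, and the only member with a lower value in LEKU than in LE. The gene lies at chr14:47276931-47296102 on the plus strand (ENSMUSG00000048379). Its deposited values ranged from 2143 to 2474 in LPS, from 3727 to 5059 in LE and from 3032 to 3723 in LEKU. These ranges do not overlap, which follows from the fitted means and the library factors and holds nothing on replicates. The normalized count was 2664 in LPS (2610 to 2719), 3800 in LE (3743 to 3857) and 3326 in LEKU (3271 to 3382). LE was 1.43 times LPS (1.39 to 1.46), and LEKU was 0.875 times LE (0.856 to 0.895), neither of them past 1.5-fold.

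Socs6 and Socs7, the pair of members known for binding insulin receptor substrates, were within 1.5-fold at each step. Socs6 lies on chromosome 18 (ENSMUSG00000056153), and its deposited values ranged from 433 to 499 in LPS, from 672 to 912 in LE and from 641 to 787 in LEKU, with LE and LEKU overlapping. Its normalized count was 538 in LPS (514 to 563), 685 in LE (661 to 710) and 703 in LEKU (678 to 729). LE was 1.27 times LPS, a log2 difference of 0.35 (0.27 to 0.43), and LEKU was 1.03 times LE, with an interval from 0.975 to 1.08 that includes no difference. Socs7 lies at chr11:97362551-97398542 on the plus strand (ENSMUSG00000038485). Its deposited values ranged from 1296 to 1496 in LPS, from 1908 to 2589 in LE and from 2241 to 2752 in LEKU, again with LE and LEKU overlapping. The normalized count was 1611 in LPS (1569 to 1654), 1945 in LE (1904 to 1986) and 2459 in LEKU (2411 to 2507). LE was 1.21 times LPS (1.17 to 1.25), LEKU 1.26 times LE (1.23 to 1.30) and LEKU 1.53 times LPS (1.48 to 1.58).

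Per kilobase of exon, the members spanned a wide range of levels and the order changed between conditions. In LPS the order was Socs4 with 387 normalized counts per kilobase, Socs3 with 325, Socs7 with 222, Socs5 with 79.8, Socs6 with 47.4, Socs1 with 21.8, Cish with 10.0 and Socs2 with 7.47. The counting intervals of neighbours in this order did not overlap. In LE, Cish (61.7) and Socs6 (60.4) were the only neighbours whose counting intervals overlapped, and Socs4 (553) and Socs3 (309) stayed first and second. In LEKU, Socs3 was first with 642, followed by Socs4 with 484, Socs7 with 338, Cish with 201 and Socs5 with 180. Cish thus moved from place 7 of 8 in LPS to place 6 in LE and place 4 in LEKU. Whether neighbours differ beyond the spread of replicates could not be tested. Lengths were the union of all annotated exons of a gene, from 2891 bases for Socs3 to 11349 for Socs6. The order, and the shares below, depend on this choice, and other lengths were not tried.

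Summed over the 8 members, the level per kilobase was 1101 in LPS, 1502 in LE and 2009 in LEKU, so LE was 1.36 times LPS and LEKU 1.34 times LE. The share of Cish in this sum was 0.911% in LPS, 4.11% in LE and 10.0% in LEKU. That of Socs3 was 29.5% in LPS, 20.6% in LE and 32.0% in LEKU, and that of Socs4 was 35.2%, 36.8% and 24.1%. The pair Socs3 and Socs4 thus held most of the sum in every condition.

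**Figure D4:**
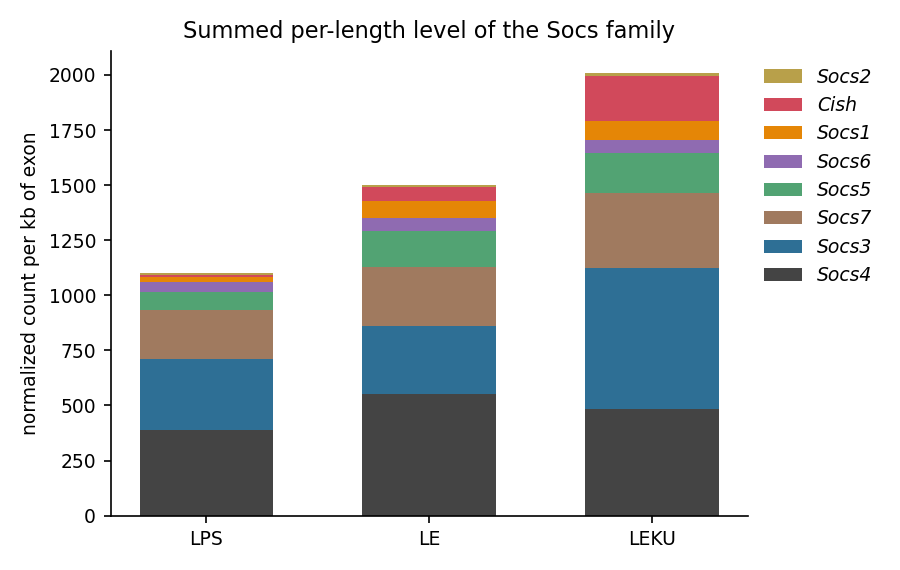
Summed level of the 8 Socs family genes in normalized counts per kilobase of exon (y axis, from 0) in LPS, LE and LEKU (x axis), stacked by gene. The stacks reach 1101, 1502 and 2009, and the Cish segment grows from 10.0 to 61.7 and 201.

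The other genes of the pathway are read against the same shares, which in LE against LPS are 13.7% of all genes at least 2-fold higher and 6.61% at least 2-fold lower, and in LEKU against LE 1.80% and 4.51%. Of 11 JAK kinases and STAT factors, 0 were at least 2-fold higher and 2 were at least 2-fold lower in LE than in LPS, with a median log2 difference of −0.31 (all genes −0.055). Jak1, the kinase shared by interferon and common gamma chain receptors, went from 12078 to 4981 and 4627 normalized counts in LPS, LE and LEKU. Stat2, which acts in type I interferon signalling, went from 6453 to 2800 and back to 5524. In LEKU against LE, 0 of the 11 were past 2-fold and the median was 0.33 (all genes −0.031). At 1.5-fold, 3 were higher and 0 lower, where 7.36% and 11.4% of all genes were. The 3 were Stat2, Jak2 and Stat5a, with log2 differences of 0.98, 0.89 and 0.61. Stat5a and Stat5b, the factors best known for inducing Cish, had log2 differences of −0.01 and −0.50 in LE against LPS, and of 0.61 and 0.53 in LEKU against LE. They were chosen for that role after their values were seen.

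**Figure D5:**
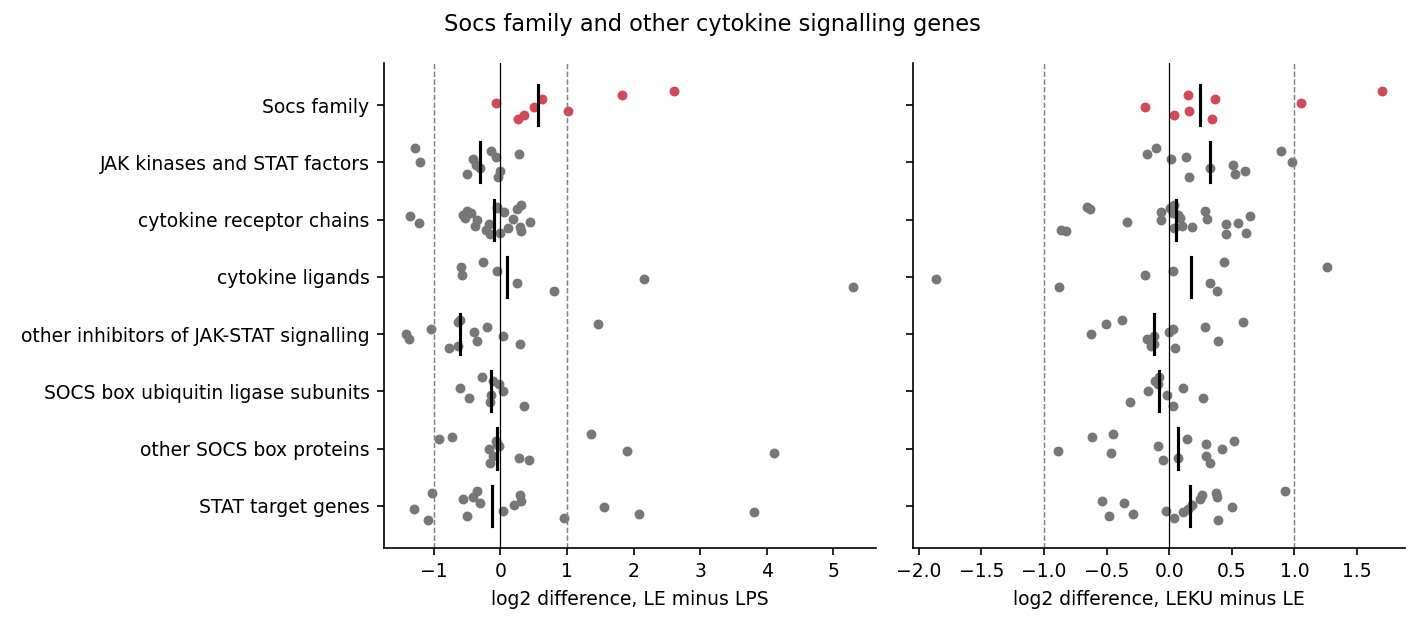
Log2 difference of each gene past the filter (points) in LE minus LPS (left) and LEKU minus LE (right) for the Socs family (red) and 7 lists of related genes (grey); black bars are list medians and dashed lines mark 2-fold. The Socs family has a median of 0.57 on the left, and the list of other inhibitors of JAK-STAT signalling has −0.60.

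Upstream of the members, 22 of 26 receptor chains and 8 of 18 cytokine ligands passed the filter. Among the receptor chains, 0 were at least 2-fold higher and 2 at least 2-fold lower in LE than in LPS, Il27ra (557 to 217) and Il12rb1 (285 to 121), and 0 were past 2-fold in LEKU against LE. The 2 lower, and the 0 in LEKU against LE, are near the shares of all genes, while the 0 higher is below the share of 13.7%. At 1.5-fold, 0 were higher and 2 lower in LE than in LPS, where 21.0% and 17.9% of all genes were. In LEKU against LPS, 0 chains were at least 2-fold higher and 1 lower, where 10.5% and 6.41% of all genes were. The 1 lower is near its share. It was Csf2rb, the shared beta chain of the interleukin 3 and GM-CSF receptors, with 1692 in LPS and 805 in LEKU. Of the 8 ligands, 2 were at least 2-fold higher and 0 lower in LE than in LPS, where 13.7% and 6.61% of all genes were. With 8 ligands, these counts are near the shares. The first of the 2 was Lif, an interleukin 6 family cytokine, with 9.89 in LPS, 428 in LE and 232 in LEKU. The other was Il15, with 17.4, 81.2 and 21.6, which was also at least 2-fold lower in LEKU than in LE. Il6 was the 1 ligand at least 2-fold higher in LEKU than in LE, with 307 in LPS, 205 in LE and 493 in LEKU. In that comparison 1.80% of all genes were at least 2-fold higher and 4.51% at least 2-fold lower. Osm, which signals through gp130 like Lif and Il6, was 175 in LE and 229 in LEKU, a log2 difference from LPS of 0.80 and 1.18.

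The list of other inhibitors of JAK-STAT signalling had a median below 0 with etoposide, where that of the Socs members was above 0. Of 13, 1 was at least 2-fold higher and 3 at least 2-fold lower in LE than in LPS, with a median log2 difference of −0.60, and at 1.5-fold 7 were lower, where 6.61% and 17.9% of all genes were lower by 2-fold and 1.5-fold and 13.7% were at least 2-fold higher. The 3 are protein tyrosine phosphatases: Ptpn6 (SHP-1) went from 10795 in LPS to 4062 in LE and 2634 in LEKU, Ptprc (CD45) from 26268 to 10154 and 8975, and Ptpn1 (PTP1B) from 4589 to 2239 and 2285. The 1 that was higher was Pias3, an inhibitor of STAT3, with 421, 1164 and 822. In LEKU against LE, 0 of 13 were past 2-fold.

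Of the 9 subunits and partners of the ligases that SOCS boxes recruit, all past the filter, 0 were past 2-fold in any comparison. In LE against LPS, LEKU against LE and LEKU against LPS, 13.7%, 1.80% and 10.5% of all genes were at least 2-fold higher. In the same order, 6.61%, 4.51% and 6.41% were at least 2-fold lower. With 9 genes, a count of 0 is near these shares. At 1.5-fold, 0 were higher and 1 lower in LE than in LPS, where 21.0% and 17.9% of all genes were. Their median log2 differences were −0.14 in LE against LPS, −0.084 in LEKU against LE and −0.19 in LEKU against LPS. Of the 24 other SOCS box proteins listed, 13 passed the filter, and 3 were at least 2-fold higher and 0 lower in LE than in LPS, near the shares of all genes (13.7% and 6.61%). Asb1, an ankyrin repeat member, was 493 in LPS, 1264 in LE and 927 in LEKU, and the other 2 were Spsb1 and Asb14. In LEKU against LE, 0 of 13 were past 2-fold.

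Of 16 genes known as STAT targets, 3 were at least 2-fold higher and 3 at least 2-fold lower in LE than in LPS, where 13.7% and 6.61% of all genes were, with a median log2 difference of −0.13. In LEKU against LE, 0 were past 2-fold and the median was 0.17. The early response gene Fos was 57.9 in LPS, 827 in LE and 895 in LEKU, and Junb was 1967, 5760 and 8156. The third was Id1, with 3.59, 18.5 and 14.9. Myc went from 3822 to 1556 and 1725, Batf from 2756 to 1294 and 1694, and Pim2 from 6929 to 3417 and 4439. Pim1 had 6064 in LPS, 4759 in LE and 9048 in LEKU. It was the 1 of 16 that was at least 1.5-fold higher in LEKU than in LE, and 0 were lower by 1.5-fold, where 7.36% and 11.4% of all genes were. The log2 differences of the list in LEKU against LE ran from −0.53 for Bcl2l1 to 0.93 for Pim1.

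B cell markers were abundant in every condition, and some were lower with etoposide. The summed level of Cd79a, Cd79b, Ms4a1, Pax5 and Cd22 was 106558 in LPS, 54561 in LE and 52777 in LEKU. Of these 5 markers, 2 were at least 2-fold lower in LE than in LPS, Pax5 (5632 to 1112) and Cd22 (24495 to 4237), and 4 were lower by 1.5-fold, where 6.61% and 17.9% of all genes were. The summed level of 7 T cell markers was 440, 301 and 278, nearly all of it Lck, and Cd3e, Cd3d, Cd3g, Cd4, Cd8a and Thy1 were each below 4 in every condition. The 8 macrophage markers in the table summed to 5645, 4614 and 4236, of which Mpeg1, which B cells also express, made 5219, 4148 and 3805. Of the 7 that passed the filter, 2 were at least 2-fold higher and 0 lower in LE than in LPS, where 13.7% and 6.61% of all genes were. The 2 were Csf1r (4.24 to 10.2) and Cd14 (5.26 to 24.0), both below 10 in LPS. At 1.5-fold, 3 were higher and 1 lower, Itgam (224 to 128), where 21.0% and 17.9% of all genes were. The summed levels of natural killer cell markers were between 23.1 and 27.4, those of neutrophil markers between 2.48 and 15.3, and those of red blood cell markers 221, 183 and 115. The part of these markers in the differences of the Socs members was not tested.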

How the data were processed

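Libraries of polyA mRNA from 12 samples, 4 per condition, were sequenced as 100-base single-end reads. Per the labels and the study's methods, the authors trimmed reads with Trim Galore and cutadapt 1.2.1, mapped them to GRCm38 with TopHat2 2.0.12, used HTSeq for counts per Ensembl 78 gene, and the authors normalized these by size factor with DESeq2 1.6.3. The labels name a TruSeq mRNA kit and the methods its stranded form. Ensembl 78 was the counting annotation, and exonic lengths and positions here are from GENCODE M21 of the same build. The deposited table holds a signal per gene and library in normalized counts that proved to be fitted condition means times a library factor, and whether the fit moderated the means is not given in the sources used here. A moderated fit would draw the differences toward 0. The 3 deposited tables of comparisons hold the authors' mean, fold change, standard error, Wald score, p-value and adjusted p-value and were not used.

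Column factors were medians of ratios over the 19515 genes with a value of at least 1 in every column. All 29486 genes were above 0 in every column and 13495 were under 10 in every column, and this choice of genes was made after seeing the data. Computation was in Python with numpy, scipy, pandas and matplotlib, and the functions were tested on simulated data. No test was planned for values without replicate spread, so levels and folds were described. Replicate libraries are called biological by the study, but their spread is not held in the values.

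Members and gene lists were chosen with earlier results of these data known, and 1 gene of the B cell marker list is not reported here. The genes named are all members, and up to 4 genes per list with the largest difference past 2-fold and a mean of at least 100. The 3 genes nearest to the member with the largest rise in LE against LPS are also named. The plan asked for the same for the member with the largest fall. Only Socs3 was below 0 there (−0.073, with no stable direction), so its neighbours are counted as a choice made after its values were seen. Jak2, Stat5a, Stat5b, Pim1, Pim2, Bcl2l1, Id1, Il15, Spsb1, Asb14, the markers and the neighbours of Socs3 were named after their values were seen. Alternatives were TMM factors (trims of 30% and 5%), library totals, upper quartile factors, quantile normalization, pseudocounts of 0.5 and 5, no filter, a minimum of 50, a 1.5-fold threshold and leaving out each replicate number. Factors from all genes and from genes of at least 10 were added after seeing the data.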

Additional observations from a re-analysis of the deposited data

How the results depend on the processing

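No member changed sign under any alternative except Socs3 in LE against LPS, which ranged from −0.12 to 0.094. In LE against LPS, 3 members were past 2-fold under the main setting and Socs5 stood at the threshold, ranging from 0.96 to 1.18 on the log2 scale. The count fell to 2, without Socs5, with TMM factors and with factors from all genes. In LEKU against LPS the count of members rose from 3 to 4 with upper quartile factors (Socs2 added) and with quantile normalization (Socs3 added), to 5 with library totals, to 5 with factors from genes of at least 10 (chosen after seeing the data) and to 6 at 1.5-fold. The members added with library totals and with factors from genes of at least 10 were Socs2 and Socs3, and Socs2 was at 0.77 with quantile normalization. Cish stayed past 2-fold in all 3 comparisons and Socs3 in LEKU against LE under every alternative with 2-fold as the size called. The count of all genes past 2-fold was 3166 in LE against LPS, 983 in LEKU against LE and 2641 in LEKU against LPS, and at 1.5-fold it was 6060, 2931 and 5671. With a minimum of 50 it was 615 in LEKU against LE. Of the genes past 2-fold, 67.5% were higher in LE against LPS, 28.6% in LEKU against LE and 62.2% in LEKU against LPS. These shares became 78.7%, 33.0% and 78.1% with library totals, which moved the median log2 difference of all genes to 0.11 in LE against LPS and 0.20 in LEKU against LPS, and 57.4%, 38.7% and 55.4% with quantile normalization. Leaving out a replicate number gave the same member calls by construction, since the columns hold fitted means. No paired analysis was possible because the columns of a condition are multiples of each other and no result comes from a test. The counting intervals leave out the variation between cultures, which the values used here do not hold, so small differences such as those of Socs4, Socs6 and Socs7 were not set against it.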
